A study of Mus musculus with 8 samples.

Results

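Grin1, Grik5 and Cacng3 encode parts of the glutamate receptors that carry fast excitatory transmission: Grin1 the obligatory subunit of NMDA receptors, Grik5 a kainate receptor subunit and Cacng3 an auxiliary protein of AMPA receptors. They are 3 of the 2372 genes listed in the authors' deposited table for the medial prefrontal cortex (mPFC). The 3 were taken by symbol after the table's rows were matched to GENCODE M21 genes by chromosome, start, end and strand, and all 3 matched exactly. The table lists only genes with an unadjusted p below 0.05, and the genes were picked with their difference in view, so that difference is described here and supports nothing further.

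RNA came from the mPFC of 8 adult male mice on a C57Bl/6J background, all labelled naive, which is bulk tissue holding neurons and glia together. The 4 conditional knockouts (CaKO) carried CamK2A-Cre and the floxed alleles (CamK2A-Cre;Gpr158flox/flox), a Cre whose promoter is active in forebrain excitatory neurons, so other cells keep Gpr158, the gene of an orphan G protein-coupled receptor. The 4 controls were littermates with the floxed alleles and no Cre (Gpr158flox/flox), and no group with Cre alone was labelled. The study asked what lies behind the lack of glutamate vesicles that follows when glutamatergic cells lose GPR158. Values from the individual libraries were analysed for CaKO, and the comparison with controls comes from the authors' deposited table.

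Glutamate opens ion channels of the NMDA, AMPA and kainate families, each a tetramer of related subunits. An NMDA receptor needs GluN1, the Grin1 product, to assemble and to bind its co-agonist glycine. GluK5, the Grik5 product, binds kainate with high affinity but forms a working channel only with a GluK1, GluK2 or GluK3 subunit. Transmembrane AMPA receptor regulatory proteins (TARPs), of which Cacng3 encodes gamma-3, bring AMPA receptors to the synapse and slow their closing.

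Grin1 spans chromosome 2: 25291181 to 25319187 on the minus strand (GRCm38). Grik5 lies on chromosome 7: 25009849 to 25072346, minus strand, and Cacng3 on chromosome 7: 122670492 to 122769393, plus strand, 97.6 Mb apart. All are protein-coding, and no other gene's transcript was near-identical to theirs. Exons of Grin1os, an antisense gene, cover 13.5% of the exon sequence of Grin1 on the opposite strand, and exons of other genes cover 0% of that of Grik5 and Cacng3. The sources used here do not say whether strand entered the counting. How reads from the part shared by Grin1os and Grin1 were counted is therefore not known.

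Because the 3 genes were lower together, the sequence just upstream of their RefSeq starts (GRCm38.p6) was compared. RefSeq gave a promoter window for all 3. Capitals mark the E-box CACGTG in Grin1 and the GC box GGGCGG in Grik5, and both sequences are written 5′ to 3′ on the gene's own strand, ending at the base before the start.
Grin1, chr2:25319188-25319437, minus strand: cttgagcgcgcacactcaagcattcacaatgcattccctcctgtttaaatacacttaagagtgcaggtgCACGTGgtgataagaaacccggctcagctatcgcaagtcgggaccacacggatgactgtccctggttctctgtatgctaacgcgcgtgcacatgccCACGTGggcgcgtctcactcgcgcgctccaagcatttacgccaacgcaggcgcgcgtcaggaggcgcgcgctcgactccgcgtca
Grik5, chr7:25072370-25072566, minus strand: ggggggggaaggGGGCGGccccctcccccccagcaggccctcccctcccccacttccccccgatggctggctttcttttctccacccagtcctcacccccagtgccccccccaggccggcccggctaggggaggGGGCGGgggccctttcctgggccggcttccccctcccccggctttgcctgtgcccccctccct
The stretch for Grik5 stops after 197 bases because exons of Zfp574, a zinc finger gene, take up the 21.2% of the 250-base window farthest from the start. The RefSeq start of Cacng3 lies 1252 bases inside the gene as the table places it, so its 250-base window is 100% exon by GENCODE and is not printed.

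The windows of Grin1 and Grik5 shared none of the sequences searched for. The window of Cacng3 lies inside the gene as the table places it, so its counts do not describe the sequence upstream of that gene. GGGCGG, searched on both strands in the 250 bases before the start, occurred 2 times for Grik5 and 0 times for Grin1 and Cacng3, and 32.7% of the 32851 RefSeq windows of that length hold it. CACGTG, which reads the same on both strands, occurred 2 times for Grin1 and 0 times for Grik5 and Cacng3, against 6.02% of windows that hold it. The cyclic AMP response element TGACGTCA, the Egr motifs GCGGGGGCG and GCGTGGGCG and the TATA box TATAAA occurred 0 times in the 3 windows. GCGGGGGCG can overlap GGGCGG where both occur. GC content was 75.2% for Grik5, higher than in 96.1% of all windows, 58.8% for Grin1 and 56.8% for Cacng3, where the median window has 52.4%.

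The obligatory NMDA receptor subunit gene Grin1 had 4247, 3880, 2530 and 4582 normalised read counts in CaKO replicates 1 to 4, a mean of 3810 ± 900 (SD, n = 4). Replicate 3 was well below the other libraries, which lay close together. Grin1 stood at 75.2% of control in the authors' deposited table, a log2 difference of -0.41 (p = 0.00967, adjusted p = 0.137), which did not pass an adjusted p of 0.05. The 95% interval implied by that p runs from -0.72 to -0.10 on the log2 scale.

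For the kainate receptor subunit gene Grik5 the counts were 2607, 2198, 1961 and 3051, a mean of 2454 ± 479 (SD, n = 4). Replicate 4 was highest and replicate 3 lowest, with a wide spread between them. The authors' deposited table gives Grik5 at 76.3% of control, a log2 difference of -0.39 (p = 0.00326, adjusted p = 0.0771), which also did not pass. Its implied 95% interval is -0.65 to -0.13.

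Cacng3, the TARP gene, had 1983, 1638, 1496 and 1908 counts, a mean of 1756 ± 228 (SD, n = 4). Replicates 1 and 4 were high and replicates 2 and 3 low. It was the 1 of the 3 genes that fell in the authors' deposited table, to 76.6% of control, a log2 difference of -0.38 (p = 0.000851, adjusted p = 0.0350), with an implied 95% interval of -0.61 to -0.16. Of the 12938 genes in the authors' adjustment, 3.24% were called in either direction and 1.97% were called lower. At an unadjusted p below 0.05, which all 3 genes have, 15.8% of genes are listed, 8.68% lower and 7.14% higher. Since the 3 were picked on this contrast, nothing is read from these shares.

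The fold changes of the 3 genes lay within 0.03 of one another on the log2 scale, far less than their implied standard errors of 0.16 for Grin1, 0.13 for Grik5 and 0.12 for Cacng3. Cacng3, the gene that was called, thus had the smallest implied standard error and not the largest difference. Dividing each CaKO mean by the deposited fold change gives an implied control level of 5065 normalised counts for Grin1, 3215 for Grik5 and 2293 for Cacng3. Every CaKO library, 4 of 4 for each gene, lay below that level. The same held for most other lower genes named here, such as Cacng7 and Cck, so it does not set the 3 genes apart. The implied control level is derived, assuming that the fold change is the ratio of group means, and carries no spread of the controls. The plot of the 3 genes by library shows it beside the measured values.

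**Figure D1:**
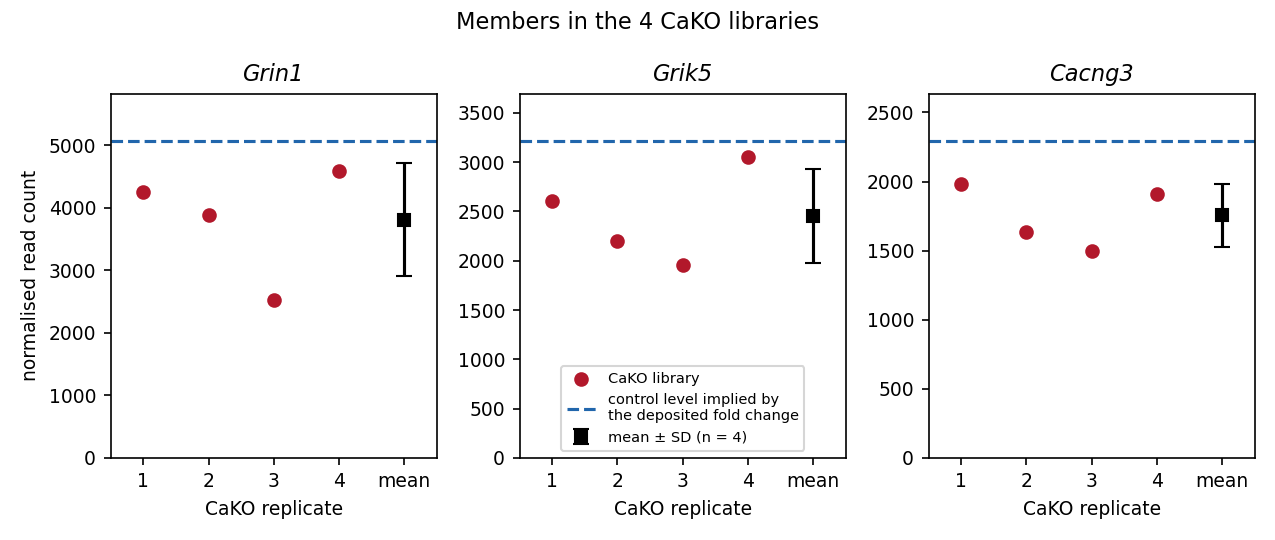
Normalised read counts (vertical axis, from 0) of Grin1, Grik5 and Cacng3 in CaKO replicates 1 to 4 (points), with the mean ± SD over the 4 libraries (squares) and the control level implied by the deposited fold change (dashed lines at 5065, 3215 and 2293). All points lie below the dashed line, and replicate 3 is the lowest point in each panel.

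Counting noise was small beside the spread between libraries. Grin1 varied by 23.6% (SD over mean) where counting alone would give 1.63%. For Grik5 the spread was 19.5% against 2.03%, and for Cacng3 13.0% against 2.40%. The reads behind these values numbered 4226 and 3872 for Grin1 in replicates 1 and 2, for example, and these figures cover counting error only.

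Per kilobase of exon, the order of levels was Cacng3, Grik5, Grin1 in each of the 4 CaKO libraries. Cacng3 averaged 632 ± 82.1 normalised counts per kb (SD, n = 4), Grik5 475 ± 92.7 and Grin1 393 ± 92.8. The means of Grik5 and Grin1 differ by less than the SD of either. Exon length is that of the whole gene model, 9700 bases for Grin1, 5168 for Grik5 and 2777 for Cacng3, which can understate a gene whose main transcript uses only part of it.

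Ratios between genes within a library do not depend on how libraries were scaled, and these ratios show that the 3 genes did not vary in step. Grin1 over Cacng3 was 2.14, 2.37, 1.69 and 2.40 in replicates 1 to 4, lowest in replicate 3. Grin1 over Grik5 ranged from 1.29 in replicate 3 to 1.76 in replicate 2. Grik5 over Cacng3 stayed between 1.31 and 1.34 in replicates 1 to 3 and reached 1.60 in replicate 4. Replicate 3 was thus low in Grin1 relative to both other genes, and replicate 4 high in Grik5 relative to Cacng3.

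Replicate 3 was the lowest CaKO library for all 3 genes. It was also lowest for 60.0% of the 1123 genes lower at an unadjusted p below 0.05, and for 8.01% of the 924 higher. Both sets passed that limit partly through these same libraries, so the shares do not describe genes in general. Against the mean of the other libraries, replicate 3 stood at -0.74 on the log2 scale for Grin1, -0.42 for Grik5 and -0.30 for Cacng3. The median over the 1123 lower genes was -0.22. Without replicate 3, the fold change of Grin1 came to -0.26, that of Grik5 to -0.30 and that of Cacng3 to -0.32. These had to stay negative, since every CaKO library lay below the implied control level. The derived p of Grin1 was then 0.133, so the gene no longer met an unadjusted p below 0.05. The call of Cacng3 ended without replicate 3 and also without replicate 2, where its fold change was -0.35. Having 3 libraries in place of 4 would, with the fold change unaltered, already put the p of Cacng3 at 0.00201, past the largest p of a called gene (0.00162).

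**Figure D2:**
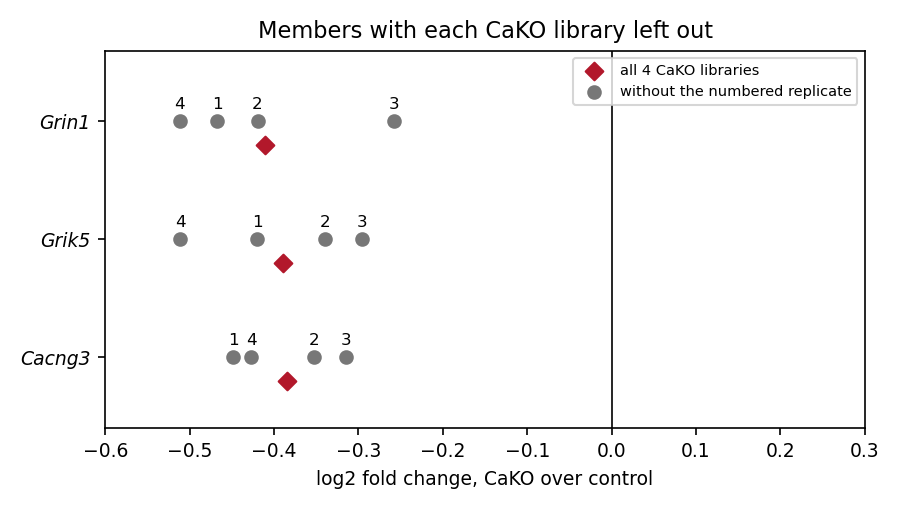
Log2 fold change, CaKO over control (horizontal axis), of Grin1, Grik5 and Cacng3 with all 4 CaKO libraries (diamonds) and with the numbered CaKO replicate left out (grey points), the controls kept at their implied level. All values are below 0, which was fixed because every CaKO library lies below the implied control level. Leaving out replicate 3 brings each gene closest to 0, at -0.26, -0.30 and -0.32.

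The wider receptor system was read from a list of 44 genes of subunits, metabotropic receptors and auxiliary proteins, without the listed genes that are not reported here. Among the 44, the authors' deposited table gives 10 as lower (22.7% of the list, beside 8.68% of all tested genes). Calls numbered 2, both lower (4.55% of the list, beside 1.97% of tested genes), namely Cacng7 and Cacng3. The median log2 fold change of the 10 was -0.39, beside -0.37 over all 1123 lower genes with a p below 0.05. These counts include the 3 genes themselves, and the genes without a value were not tested by the authors or missed the unadjusted limit of 0.05.

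Among 18 channel subunit genes, 2 were lower, Grin1 and Grik5 (11.1%, beside 8.68% of tested genes). Both are genes picked for their difference. Of 7 NMDA receptor subunit genes 1 has a value, of 5 kainate receptor subunit genes 1, and of 4 AMPA and 2 delta receptor subunit genes 0. The partners with which GluN1 and GluK5 assemble, such as Grin2a, Grin2b and Grik2, therefore have no value here, and a p that misses 0.05 does not show that they were equal between genotypes.

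Most of the family of Cacng3 was lower too. Of the 6 TARP genes, all 5 with a value were lower at an unadjusted p below 0.05 (83.3%, beside 8.68% of tested genes). The authors' deposited table calls 2 of the 6, Cacng7 and Cacng3 (33.3%, beside 1.97% of tested genes called lower). The 5 log2 values in that table lie between -0.51 and -0.23, and the picked gene Cacng3 is among them. Cacng7, the gene of gamma-7, a TARP of the second type that also acts on AMPA receptors, had 1827, 1977, 1345 and 2030 counts. Its replicate 3 lay apart below the other libraries. By the authors' deposited table it fell to 70.4% of control, a log2 difference of -0.51 (adjusted p = 0.00689). Without replicate 3 its fold change was -0.39 and the call ended. A smaller group with the fold change unaltered would have left its p at 0.000206, within the called range.

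The remaining TARP genes did not pass. Cacng2, the gene of stargazin, the founding TARP, had 1188, 1181, 1076 and 1377 counts, the smallest difference of the family at -0.23 in the authors' deposited table (adjusted p = 0.229). Cacng8 (gamma-8), which is rich in forebrain, had 456, 420, 267 and 609 counts, spread widely between replicates 3 and 4, and stood at -0.42 (adjusted p = 0.302) in the authors' deposited table. Cacng4 (gamma-4) had 502, 310, 393 and 500 counts and stood at -0.30 (adjusted p = 0.310) in the authors' deposited table. Per kilobase of exon, the family ran in the CaKO libraries from Cacng7 at 735 ± 128 and Cacng3 at 632 ± 82.1 normalised counts to Cacng2 at 219 ± 22.7, Cacng8 at 187 ± 59.7 and Cacng4 at 119 ± 26.0 (SD, n = 4). The means of Cacng7 and Cacng3 differ by less than the SD of Cacng7, as those of Cacng2 and Cacng8 differ by less than that of Cacng8. Within libraries, however, Cacng7 lay above Cacng3 in every replicate, most narrowly in replicate 3 (551 against 539). Cacng2 lay above Cacng8 in all but replicate 4 (250 against 260).

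Other AMPA receptor auxiliary genes had lower values without a call. Prrt1, whose product (SynDIG4) binds AMPA receptors, had 1462, 1268, 930 and 1537 counts, lowest in replicate 3. It stood at -0.47 in the authors' deposited table (adjusted p = 0.0667). Shisa7, whose product has been placed at both AMPA and GABA-A receptors, had 1378 to 1702 counts and stood at -0.27 (adjusted p = 0.181) in the authors' deposited table. Nptxr, a neuronal pentraxin receptor that gathers AMPA receptors at the cell surface, had 9303 to 12947 counts and stood at -0.26 (adjusted p = 0.234) in the authors' deposited table. Cornichon, Neto and the other listed auxiliary genes have no value here. By their p, the genes just inside the limit of 0.05 that decides which receptor genes have a value were Cacng8 (p = 0.0457) and Cacng4 (p = 0.0482) in the authors' deposited table, and those just outside it are not listed.

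**Figure D3:**
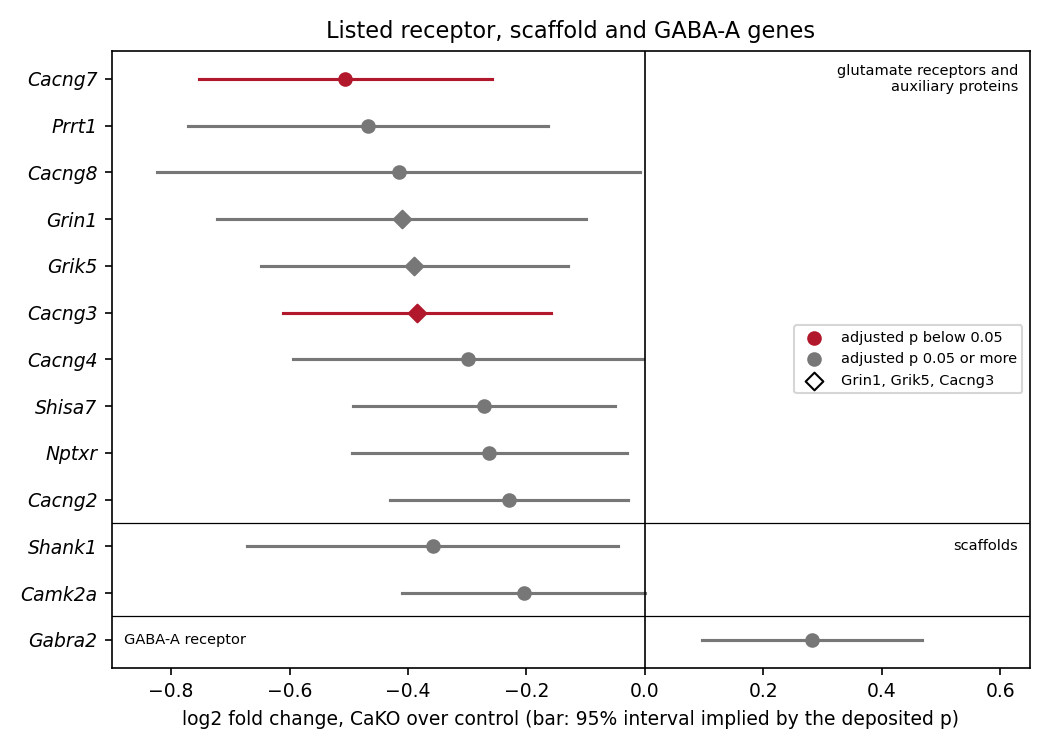
Log2 fold change, CaKO over control (horizontal axis), of 10 glutamate receptor and auxiliary genes, 2 scaffold genes and 1 GABA-A receptor gene with a value in the authors' deposited table. Points are the deposited values, bars the 95% intervals implied by the deposited p, red an adjusted p below 0.05 and diamonds Grin1, Grik5 and Cacng3. Of the genes drawn, Cacng7 and Cacng3 are red, and Gabra2 lies to the right of 0.

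Few genes of the proteins that anchor these receptors have a value. Of 20 scaffold and postsynaptic density genes reported here, 2 were lower at an unadjusted p below 0.05 (10.0%, beside 8.68% of tested genes) and 0 passed 0.05 after adjustment by the authors' deposited table, for which DESeq2 is among the tools named. With 3.24% of tested genes called, a list of 20 would hold few calls or none at that share. Shank1, a master scaffold, had 3450 to 6317 counts and stood at -0.36 (adjusted p = 0.226), and Camk2a, the kinase subunit that phosphorylates AMPA receptors, 37911 to 50901 counts at -0.20 (adjusted p = 0.316) in the authors' deposited table.

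Genes outside the receptor system shared the pattern of the 3 genes over the CaKO libraries. Expressed as log2 of each library over the gene's mean and averaged over the 3, it was 0.14, -0.08, -0.38 and 0.23 in replicates 1 to 4. Over 1517 genes of the table with a mean of at least 200, the 6 most similar were Cck, a neuropeptide gene of cortical neurons, Rasl10b, a Ras-like GTPase, Tle3, a transcriptional corepressor, Calm3, a calmodulin gene, Fam193a and Rpl19, a ribosomal protein gene. Their largest difference from the pattern in any of the 4 libraries was 0.03 for Cck and Rasl10b and 0.04 for the others on the log2 scale, where the median gene differed by 0.38. The 3 genes themselves differed from their own mean pattern by 0.21 (Grin1), 0.08 (Grik5) and 0.15 (Cacng3). With 4 libraries such likeness is a description only. Both Cck and Rpl19 fell, by 0.47 and 0.40 in log2 units per the authors' deposited table (adjusted p = 0.0191 and 0.0394). The other 4 stood between -0.35 and -0.27 with adjusted p-values from 0.186 to 0.314 in the authors' deposited table.

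**Figure D4:**
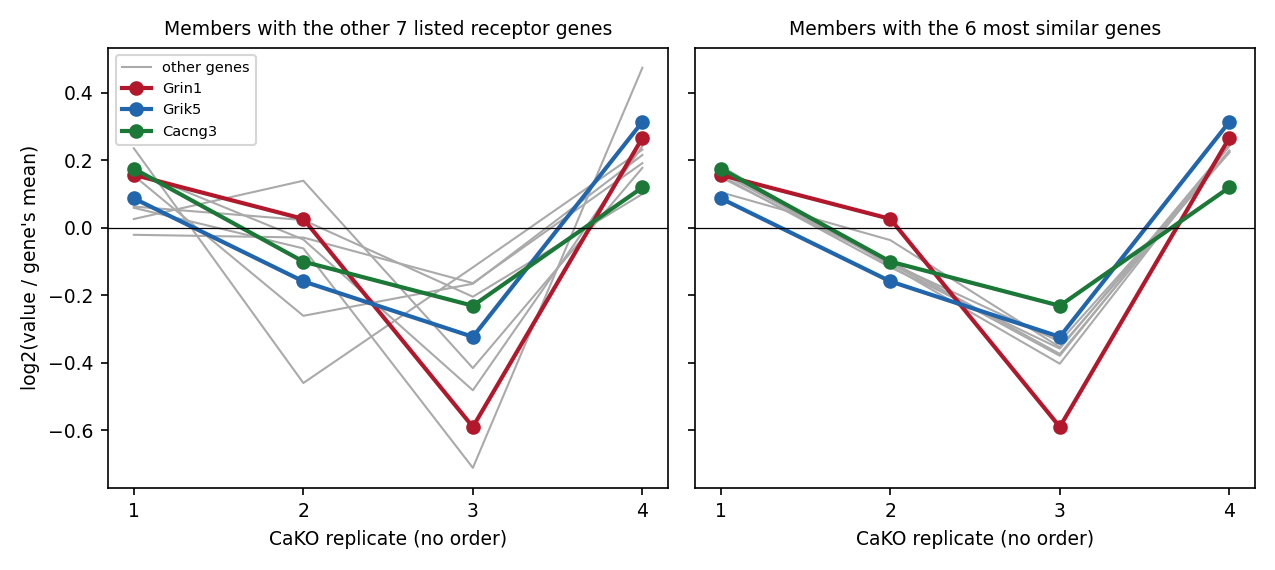
Log2 of each CaKO library's value over the gene's own mean (vertical axis) in replicates 1 to 4, which have no order; lines join the values of 1 gene. Grin1, Grik5 and Cacng3 are coloured, and grey lines are 7 other listed glutamate receptor and auxiliary genes (left) and the 6 most similar genes (right). Replicate 3 is the low point of all 3 coloured lines, deepest for Grin1 at -0.59.

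Markers of several cell types were lower as well in the authors' deposited table. Beside the shares of each list below, 8.68% of all tested genes were lower, 1.97% called lower and 7.14% higher. Of 8 pyramidal neuron markers, 4 have a value and all 4 were lower (50.0% of the list, beside 8.68% of tested genes), with 1 call and a median log2 fold change of -0.33. Their summed level in the CaKO libraries ran from 49161 normalised counts in replicate 3 to 67761 in replicate 4, the same libraries that were lowest and highest for Grin1 and Grik5, and most of that sum is Camk2a. Of 8 oligodendrocyte markers all 8 were lower (100.0%), 4 of them called (50.0%), with a median of -0.50 and a summed level of 34904 to 42435. Of 6 genes listed as precursor markers, 3 were lower and called (50.0%), Gpr17, Olig1 and Bcas1, with a median of -0.59. Their sum was likewise lowest in replicate 3 (2118) and highest in replicate 4 (3058). Pdgfra, Cspg4 and Olig2 of that list have no value, so a difference in precursors as such is not shown. Of 8 astrocyte markers 4 were lower (50.0%), 2 of them called (25.0%), with a median of -0.35. Their sum was lowest in replicate 3 (10325) and highest in replicate 2 (12908). The medians of the oligodendrocyte markers and of the 3 listed precursor markers are thus further from 0 than the values of Grin1, Grik5 and Cacng3. Of 6 endothelial markers 2 were lower (33.3%), 1 of them called (16.7%), with a sum of 1707 to 1781. The 8 interneuron markers have no value, and 1 of 8 microglial markers was higher (12.5%), with 144 to 178 counts. No marker with a value was at 0 in a CaKO library. The part of these markers in the lower levels of Grin1, Grik5 and Cacng3 was not tested, and in bulk tissue fewer cells of a type and less RNA per cell cannot be told apart.

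Gpr158 itself (chromosome 2: 21367542 to 21830547) has no value here, since 0 genes of the table overlap it on its strand. The deleted gene was thus not tested by the authors or missed the unadjusted limit of 0.05 between CaKO and control, and the genotype labels have no check from it. Reads over the table's genes ranged from 2832931 to 3183638 per CaKO library, which is part of each library.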

How the data were processed

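Poly-A-selected RNA of 4 CaKO and 4 control mice was sequenced as paired-end reads, per the labels' protocols. Per the submitters' processing notes, TopHat2 2.0.12 (GRCm38), HTSeq 0.6.1 and DESeq2 1.30.1 were used. The CaKO values deposited by the authors are a signal, read counts divided by 1 factor per library: in each library 100.0% of values are whole multiples of 1 step (tolerance 0.01). The log2 fold changes, p-values and adjusted p-values are the authors', as deposited. Their direction is CaKO over control: the fold change is negative for each of the 18 genes without a read in any CaKO library. The adjusted p-values follow Benjamini-Hochberg over 12938 genes (largest relative difference 0.005), and 325 genes listed at an adjusted p of 1 were left out of it. "Rose" and "fell" mean an adjusted p below 0.05, "higher" and "lower" an unadjusted p below 0.05.

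The table used here has no control columns, so limma and edgeR were not run and no replicate pairing was possible. Standard errors and 95% intervals were derived from the deposited p, taken as a two-sided normal test. For a left-out library, the fold change was recomputed against the implied control level with the standard error widened 1.08 times. A call was kept at a p up to 0.00162. Of the 2372 genes, 2266 matched GENCODE exactly, 89 by at least 80% mutual overlap and 17 not at all. Near-identical copies were sought with BLAST 2.17.0 (98% identity over 200 bases and 50% of a transcript). Exon lengths are the table's. The script's arithmetic was tested on simulated data (Python 3.11.15, scipy 1.17.1). That test took the fold change as the ratio of group means, so it did not examine this assumption or the widened standard error. Text names the 3 genes, the listed genes with a value and the 6 most similar genes. Members and lists were chosen with earlier results of these data known. Of the listed genes, 2 are not reported here and enter no count over the lists.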

Additional observations from a re-analysis of the deposited data

How the results depend on the processing

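The log2 fold changes of Grin1, Grik5 and Cacng3 stayed negative under all 7 alternatives run for each, but most of these could not change the sign. Every CaKO library lay below the implied control level, so leaving a library out or taking the geometric mean had to give a negative value. The Benjamini-Yekutieli adjustment does not alter the fold change. Grin1 without replicate 3 had a derived p of 0.133. With each CaKO library left out in turn, the log2 fold change ran from -0.51 to -0.26 for Grin1, from -0.51 to -0.30 for Grik5 and from -0.45 to -0.32 for Cacng3. Grin1 passed under none of them, Grik5 only without replicate 4, and Cacng3 lost its call without replicate 2 or 3. Under the Benjamini-Yekutieli adjustment, which allows any dependence between genes, Cacng3 at -0.38 had an adjusted p of 0.351 and lost its call. The 2 calls among the 44 receptor genes became 0 to 4 with a library left out (3 without replicate 1, 1 without replicate 2, 0 without replicate 3 and 4 without replicate 4, counting listed genes that gained a call), 1 at an adjusted p below 0.01, 4 at one below 0.10 and 0 by Benjamini-Yekutieli. The scaffold genes had 0 calls under all 8 alternatives. Scaling the CaKO libraries to the same total gave -0.42, -0.39 and -0.39 for Grin1, Grik5 and Cacng3, and their geometric mean -0.45, -0.41 and -0.39. The geometric mean was set against an implied control level built from arithmetic means, so it could only make the fold change more negative. Left-out values keep the controls at their implied level and use the standard error of the full comparison widened 1.08 times, so they are approximations. No paired analysis was possible because the table used here holds library values of the CaKO group alone.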

Other observations

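Some genes near Grin1 and Grik5 were also in the authors' deposited table. These neighbours were looked up after the values had been seen. Of 40 protein-coding genes within 250 kb of Grin1, 6 are in the authors' deposited table (15.0%, beside 15.8% of all tested genes), 2 lower and 4 higher. Ptgds, a prostaglandin synthase gene, and Ssna1 rose by 0.44 and 0.33 on the log2 scale there (adjusted p = 0.0218 and 0.0354). Of 22 such genes around Grik5, 3 are in the authors' deposited table, 2 of them in the adjustment (9.09%). Rps19, a ribosomal protein gene, rose by 0.61 (adjusted p = 0.000250) and Tmem145 fell by 0.53 (adjusted p = 0.0261) in that table, and the third, Gm9844, was left out of the adjustment. Around Cacng3, 0 of 2 are in it.

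Among 12 GABA-A receptor subunit genes, which encode the channels of fast inhibition, 1 has a value in the authors' deposited table. That gene was higher (8.33% of the list, beside 7.14% of tested genes that were higher). Gabra2, the gene of the alpha-2 subunit, had 2377, 2652, 2174 and 2568 normalised counts in CaKO replicates 1 to 4, with replicate 3 again lowest. The authors' deposited table puts it at a log2 value of 0.28 (adjusted p = 0.0711), a higher value that did not pass.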
